A study of Homo sapiens with 2 samples.

Results

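GSN, TXNIP, SAT1, STMN2 and RUNDC3A are 5 of the 14884 human genes named on the expression arrays of this study, and none of them encodes a metallothionein. They were taken by symbol from the platform annotation, with every probe set that carries the symbol, and were picked with their differences between the arrays known, so those differences are descriptions and were not tested. GSN, TXNIP and SAT1 belong to the genes that deacetylase inhibitors are known to induce, whereas STMN2 and RUNDC3A are neuronal genes, a class such inhibitors can release in other cells. Together they have 6 of the 53617 probe sets, and 2 of these 6 measure TXNIP. One sample was of SNK6 cells given romidepsin and sildenafil together for 72 h, and the other was of SNK6 cells given romidepsin alone for 72 h. SNK6 is an NK/T-cell lymphoma line, a single line kept in medium with 10% fetal bovine serum and 500 U/ml interleukin-2, which both samples share, as they share romidepsin. Romidepsin inhibits class I histone deacetylases, and sildenafil inhibits the phosphodiesterase PDE5. Neither drug's dose is given in the sources used here, and the second drug's short name in the labels was read as sildenafil because the design names no other.

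The label of these genes as induced could not be checked, since no cells without romidepsin were analysed here. The comparison therefore asks only whether their signals differed when sildenafil was added to romidepsin. Each group is 1 array, so no value below has a replicate error, no p-value could be computed, and a difference between treatments cannot be told apart from one between cultures, extractions or arrays.

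Histone deacetylases remove acetyl groups from histone tails, and their inhibition leaves chromatin more acetylated, which raises the transcription of some genes and lowers that of others. GSN encodes gelsolin, which severs and caps actin filaments. TXNIP encodes an arrestin-fold protein that binds and inhibits thioredoxin and limits glucose uptake. SAT1 encodes spermidine/spermine acetyltransferase, which marks polyamines for export or oxidation. STMN2 encodes stathmin-2, which binds tubulin dimers in growing axons, and RUNDC3A encodes a RUN domain protein first found as a partner of the small GTPase Rap2. Many neuronal genes are kept silent outside the nervous system by the repressor REST, which recruits deacetylases through its corepressor RCOR1.

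The sequences before the starts of TXNIP and SAT1 are shown as examples of known deacetylase inhibitor targets. GSN is also such a target, but it has 6 listed starts and its windows are not printed. The sequences shown are the 250 bases before the outermost RefSeq start of TXNIP (GRCh38.p14, chr1:145996580-145996829, minus strand) and before the single listed start of SAT1 (GRCh38.p14, chrX:23782923-23783172, plus strand). Capitals mark CCAAT boxes on either strand and, in TXNIP, the repeat described next.
TXNIP: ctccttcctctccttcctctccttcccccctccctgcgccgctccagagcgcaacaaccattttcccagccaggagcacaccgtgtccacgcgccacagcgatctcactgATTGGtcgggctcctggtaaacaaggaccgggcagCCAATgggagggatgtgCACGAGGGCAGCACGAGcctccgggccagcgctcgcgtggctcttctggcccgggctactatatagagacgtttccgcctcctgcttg
SAT1: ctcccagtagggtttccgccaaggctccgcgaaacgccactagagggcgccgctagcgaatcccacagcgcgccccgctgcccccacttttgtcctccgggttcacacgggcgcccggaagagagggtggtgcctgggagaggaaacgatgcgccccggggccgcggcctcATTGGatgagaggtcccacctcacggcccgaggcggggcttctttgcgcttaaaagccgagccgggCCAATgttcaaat

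Each of these windows held 2 matches to CCAAT, read on both strands, and 32.0% of the 35116 RefSeq promoter windows of the same length held at least 1. The TXNIP window also held a repeat of 2 copies of CACGNG with 5 bases between them, E-box-like sites of the kind bound by the glucose-sensing factors MLXIP (MondoA) and MLX, and such a repeat was found in 16 of all 35116 windows. Neither window held the exact letters GGGCGG of the GC box or TATAAA of the TATA box, present in 42.6% and 10.7% of windows. Variant spellings of these boxes were not searched, so neither window is said to lack such an element. GSN has 6 listed starts, on chromosome 9, and GGGCGG was matched in the windows of 4 of them. TXNIP has 2 listed starts, and the window of the second, not printed, held none of these boxes and no such repeat. The arrays do not show which GSN or TXNIP start was in use. These matches describe letters in the windows and not the binding of a factor.

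Between the arrays, most named genes differed little. Of 10081 named genes whose brighter array reached a log2 signal of 3.91, the median of all deposited values, 201 (1.99%) lay at least 1.5-fold apart, 103 of them higher with sildenafil (1.02%) and 98 lower (0.972%). The median difference, the log2 signal with romidepsin plus sildenafil minus that with romidepsin alone, was -0.01 and the central 95% of genes lay between -0.44 and 0.47. Of the natural killer markers, 11 of 12 named genes passed the signal filter and EOMES did not. The brightest were PRF1 (perforin, 8.81 with the combination and 8.83 with romidepsin alone), NKG7 and CD2. Of these 11, GNLY passed only on the combination array, at 3.92. Passing numbers for other cell types were 8 of 13 T cell, 4 of 7 B cell, 5 of 10 monocyte and macrophage, and 3 of 7 epithelial and fibroblast markers. The T cell marker ICOS, at 9.97 with the combination and 9.95 with romidepsin alone, was brighter than any natural killer marker measured here. Among all 14884 named genes 10081 passed, so passing the filter does not by itself show that a gene is expressed. Each sample was bulk RNA of a single line, so these counts describe signal and not a mixture of cell types.

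All 5 genes passed the signal filter, as did 10081 of all 14884 named genes. The 5 genes passed with 5 of their 6 probe sets, and 4 probe sets did so on both arrays. RUNDC3A passed only through the combination array, where it was brighter, so its place among the measured genes depends in part on its difference. GSN, TXNIP by its brighter probe set, SAT1 and STMN2 were lower with sildenafil and RUNDC3A was higher. The differences ran from -0.59 to 0.44, with a median of -0.31. Of the 5, only STMN2 lay 1.5-fold apart. That is 1 of 5, beside 1.99% of all named genes past the filter (0.972% lower), and as the genes were chosen on this contrast, nothing is read from the share.

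**Figure D1:**
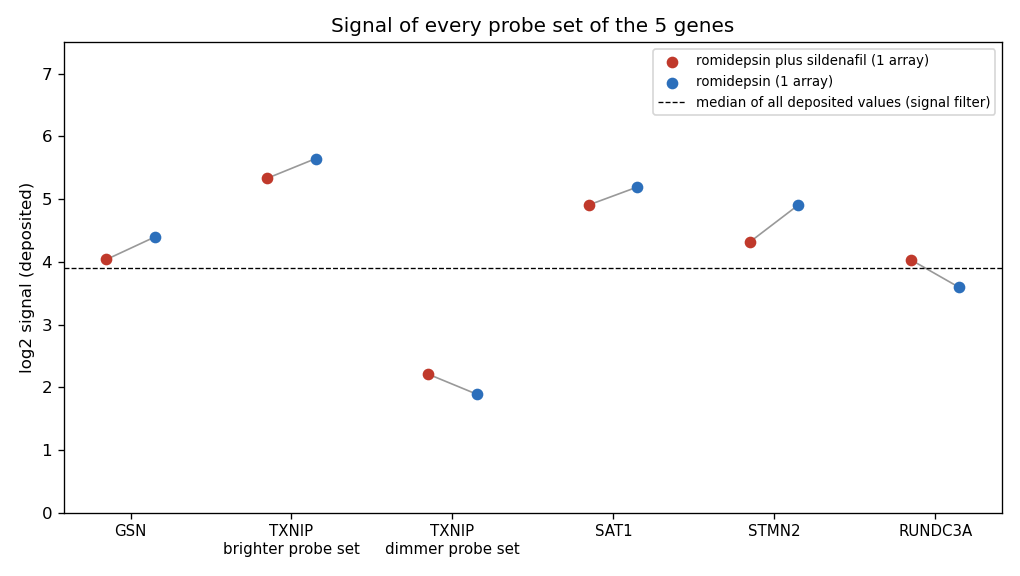
Deposited log2 signal (vertical axis) of each probe set of GSN, TXNIP, SAT1, STMN2 and RUNDC3A with romidepsin plus sildenafil (red, left of each pair) and with romidepsin alone (blue, right), 1 array each and so without error bars. The dashed line is the signal filter at 3.91; the dimmer TXNIP probe set lies below it on both arrays, and RUNDC3A crosses it.

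GSN (probe set 17088652) had a log2 signal of 4.04 with romidepsin plus sildenafil and 4.40 with romidepsin alone, a difference of -0.36, or 1.28-fold lower. The combination array was only 0.13 above the filter. Among the 500 named genes nearest in mean signal the SD of the differences was 0.27, and 15.6% of them lay at least as far from 0 as GSN, 5.2% on the same side. Over all 10081 genes, 481 (4.77%) were at least as low. The genes whose pair of signals lay nearest to that of GSN were UCA1, SOX13 and KRTAP10-2, at distances of 0.02 to 0.03 on the log2 scale, a likeness over only 2 arrays.

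The genes around gelsolin, actin filament regulators, had a median difference of -0.06 over 17 measured genes other than GSN, with 10 lower and 7 higher. Over all named genes past the filter the median was -0.01 and 52.4% were lower. None of the 17 was 1.5-fold apart, beside 1.99% of all named genes past the filter. Their differences furthest from 0 were those of DSTN and TMOD1. DSTN, destrin, an actin-depolymerising relative of cofilin, had 5.65 with the combination and 6.18 with romidepsin alone, a difference of -0.54. TMOD1, tropomodulin, which caps the slow-growing filament end, had 3.73 and 4.23 on the same arrays in that order, a difference of -0.50, and passed the filter only with romidepsin alone. LIMK2, a kinase that inactivates cofilin, was at 0.38. Of the gelsolin family itself, SCIN differed by -0.04, AVIL by -0.15, VIL1 by 0.27 and FLII by 0.01, while VILL and SVIL did not pass the filter. The actins were not analysed here. The family members thus lay on both sides of 0, and none of those measured was as low as GSN.

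TXNIP was read by 2 probe sets that differed in opposite directions. The brighter (16669796) had 5.33 with romidepsin plus sildenafil and 5.65 with romidepsin alone, a difference of -0.31, or 1.24-fold lower. The dimmer (17117443) had 2.21 with the combination and 1.89 with romidepsin alone, a difference of 0.32, or 24.6% higher, and lay below the filter on both arrays. Averaged over both probe sets the TXNIP signal was 3.77 on each array, and the difference was 0.0026. For the brighter probe set, 13.4% of the 500 genes of like signal were at least as far from 0, with an SD of 0.22. For the dimmer, 18.4% were, with an SD of 0.25. No detection calls come with the table, so whether the dimmer probe set measured TXNIP above background is unknown. EFNA3, TRMT10A and C1orf21 had the signals nearest to the brighter probe set, at distances of 0.01 to 0.04.

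How far 2 readings of a gene on the same arrays lie apart can be seen in all genes with several probe sets. In 399 such genes with every probe set past the filter, the gap between the highest and lowest difference of a gene had a median of 0.19, and 10% of genes had a gap above 0.49. In 191 of the 399 (47.9%) the probe sets differed in opposite directions. Across these genes the difference of the brightest probe set correlated with the mean of the others with r = 0.21, a description in which all points share the same arrays. The TXNIP gap was 0.63. In 17 of the 399 genes (4.26%) the gap was at least as wide, and in 8.19% of 733 genes with no filter. Of 172 genes like TXNIP, with the brightest probe set past the filter and another not, 26 (15.1%) had such a gap and 87 had opposite directions. Some genes have several probe sets of nearly equal signal, such as CLIC1, with 5 and a gap of 0.0028. The gap can also only grow with the number of probe sets, and PPIP5K1, with 18, had 1.21. These shares are therefore only a rough comparison for the 2 probe sets of TXNIP. GSN, SAT1, STMN2 and RUNDC3A have 1 named probe set each, so the same comparison cannot be made for them.

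**Figure D2:**
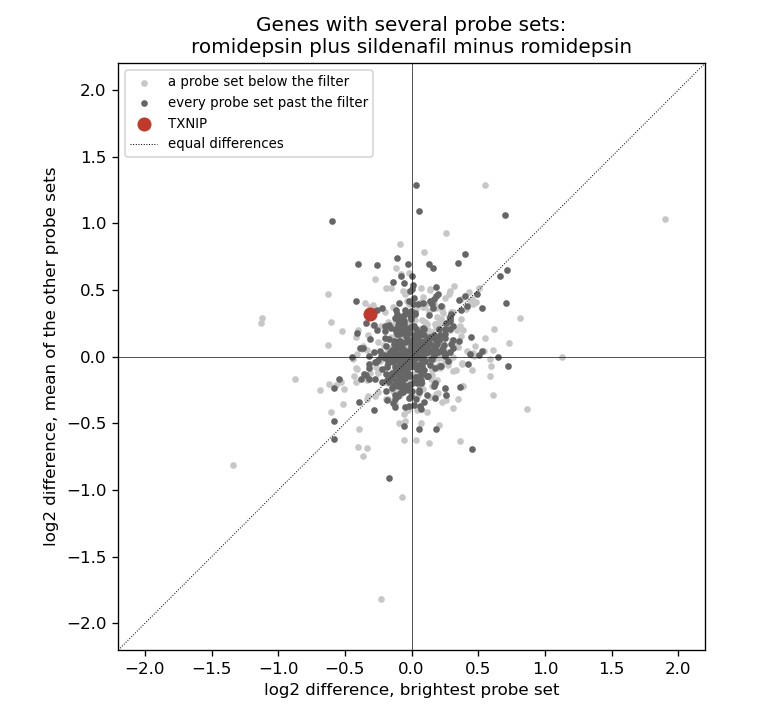
Log2 difference (romidepsin plus sildenafil minus romidepsin) of the brightest probe set of a gene (horizontal axis) against the mean of its other probe sets (vertical axis), 1 point per gene with several probe sets. Dark points have every probe set past the filter (r = 0.21 over 399 genes), pale points do not, and TXNIP (red) lies off the line of equal differences at -0.31 and 0.32.

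Genes of the thioredoxin system and relatives of TXNIP had a median of 0.04 over 24 measured genes other than TXNIP, with 13 higher and 11 lower. None of the 24 was 1.5-fold apart, beside 1.99% of all named genes past the filter. TXN, thioredoxin, the protein that TXNIP inhibits, had 10.6 with the combination and 10.8 with romidepsin alone, a difference of -0.14. The reductases that recycle thioredoxin differed from each other, TXNRD2, the mitochondrial form, at -0.36 (5.39 with the combination and 5.75 with romidepsin alone) and TXNRD1, the cytosolic form, at 0.06. The thioredoxin-like genes TXNDC17 and TXNL1 were at -0.33 and -0.29. Of the glucose-sensing factors, MLXIP and its partner MLX, which drive TXNIP transcription, were at 0.17 and 0.12, and MLXIPL, the relative of MLXIP, was at -0.19. Of the other arrestin domain genes, ARRDC1 differed by 0.16, ARRDC2 by -0.11 and ARRDC3 by -0.18. ARRDC4, the relative of TXNIP that MLXIP also induces, was below the filter, with 2.55 and 2.59 in the same order and a difference of -0.04.

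SAT1 (probe set 17102129) had 4.91 with romidepsin plus sildenafil and 5.19 with romidepsin alone, a difference of -0.28, or 1.22-fold lower. The RefSeq transcript that the annotation gives for this probe set is a non-coding one, and which SAT1 transcripts the probes share was not analysed here. Of the 500 genes of like signal 21.6% lay at least as far from 0, with an SD of 0.24, so among the 5 genes the SAT1 difference stood out least from genes of its own signal. JAM2, TRMT44 and GOLGA6L1 had the nearest signals, at distances of 0.02 to 0.03.

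Polyamine genes other than SAT1 had a median of -0.06 over 20 measured genes, with 13 lower, 6 higher and PAOX equal on both arrays. DOHH, the hydroxylase that completes the hypusine residue of EIF5A, was the single polyamine gene 1.5-fold apart. That is 1 of 20, beside 1.99% of all named genes past the filter (1.02% higher), and nothing is read from it. The DOHH signal was 4.15 with the combination and 3.40 with romidepsin alone, a difference of 0.74, and DOHH passed the filter only on the combination array. The oxidases that act beside SAT1 in polyamine breakdown were SMOX, spermine oxidase, at -0.28 (4.17 with the combination and 4.45 with romidepsin alone), and PAOX, which oxidises the acetylated products of SAT1, at 4.86 on both arrays. Of the enzymes of synthesis, SMS, spermine synthase, was at -0.21 (7.98 with the combination and 8.20 with romidepsin alone), further from 0 than ODC1 and SRM. ODC1, ornithine decarboxylase, had 9.71 with the combination and 9.73 with romidepsin alone, a difference of -0.02. SRM, spermidine synthase, was at 0.03. MTAP and APIP, which salvage methionine from the by-product of synthesis, were at -0.23 and -0.22.

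STMN2 (probe set 17070249) had 4.32 with romidepsin plus sildenafil and 4.91 with romidepsin alone, a difference of -0.59, or 33.4% lower. This lay just past the 1.5-fold mark, which is 0.585 on the log2 scale. Among 500 genes of like signal the SD was 0.25, and 3.0% lay at least as far from 0, 1.4% on the same side. Over all 10081 genes 97 were at least as low. The nearest signals were those of the microRNA genes MIR3132, MIR4441 and MIR4658, at distances of 0.03 to 0.05.

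The other stathmins lay closer to 0 than STMN2. STMN4, another neuronal stathmin, had 4.62 with the combination and 4.93 with romidepsin alone, a difference of -0.31. STMN3 was at 0.14 (5.74 with the combination and 5.61 with romidepsin alone), and STMN1, the stathmin of dividing cells, at -0.00 (6.22 and 6.23, in that order). Stathmins and microtubule regulators other than STMN2 had a median of 0.00 over 21 measured genes, with 11 higher and 10 lower. None of the 21 was 1.5-fold apart, beside 1.99% of all named genes past the filter. The linker protein gene CLIP2, at -0.36, and MAP6, which stabilises microtubules against cold, at 0.28, lay far from 0 within this list. MAP6 passed the filter only on the combination array.

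RUNDC3A (probe set 16834749) had 4.03 with romidepsin plus sildenafil and 3.59 with romidepsin alone, a difference of 0.44, or 1.36-fold higher. Its combination signal was 0.12 above the filter and its romidepsin signal 0.31 below. Genes of like signal had an SD of 0.30, the widest among those of the 5 genes, and 65 of the 500 lay at least as far from 0. Against the median of these genes, 0.06, RUNDC3A was 0.38 higher. EOLA2-DT, KLK15 and KLK1 had the nearest signals, all within 0.02.

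RUN domain and Rap genes other than RUNDC3A had a median of -0.02 over 20 measured genes, with 9 higher and 11 lower. None of the 20 was 1.5-fold apart, beside 1.99% of all named genes past the filter. SIPA1, a GTPase-activating protein for Rap, was at 0.37 (5.51 with the combination and 5.15 with romidepsin alone), RAP1GAP2, of the same function, at -0.31, and RUBCN, a RUN domain inhibitor of autophagy, at 0.29. RUNDC3B, the closest relative by name, was below the filter with a difference of 0.03. The Rap2 genes were not analysed here.

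**Figure D3:**
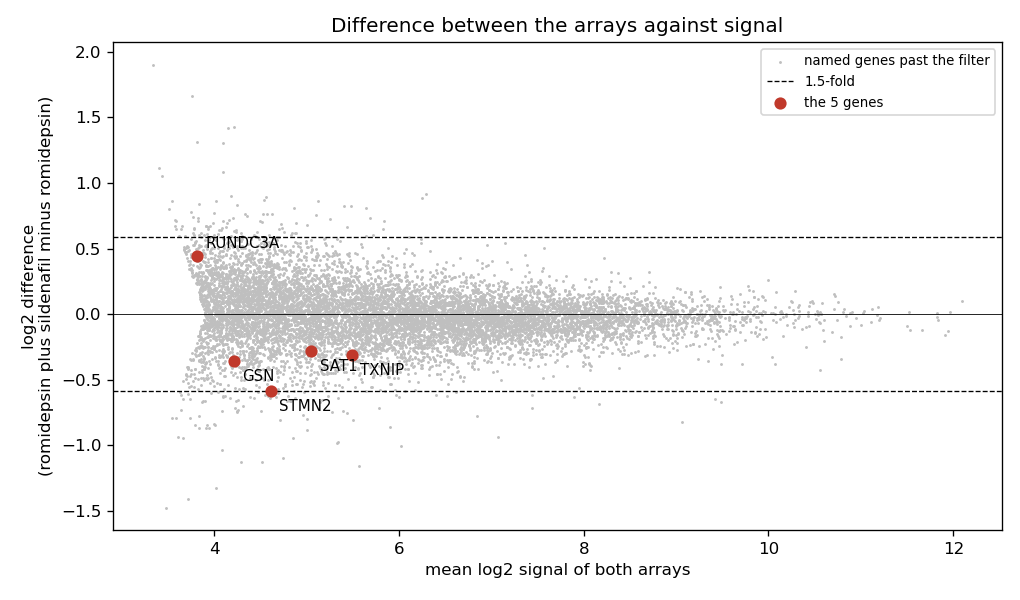
Log2 difference (romidepsin plus sildenafil minus romidepsin; vertical axis) against the mean log2 signal of both arrays (horizontal axis) for 10081 named genes past the filter (grey), with the 5 genes in red and the 1.5-fold marks dashed. The spread narrows as signal grows, STMN2 lies on the lower mark at -0.59, and the other 4 genes lie inside the marks.

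STMN2 and RUNDC3A, both neuronal, lay on opposite sides of 0, and the neuronal list around them was also divided. Over the 15 other measured neuronal genes, leaving out the silencers REST and RCOR1 that the list also holds, the median was 0.03, with 9 higher and 6 lower. Of these 15, 2 were at least 1.5-fold higher, beside 1.02% of all named genes past the filter, and 1 of the 2 passed on both arrays. The 15 were dim, with a mean of 4.69 with the combination and 4.59 with romidepsin alone. Of the 500 genes of like signal to STMN2, 9 were as much higher, and 15 of the 500 for RUNDC3A. Nothing is read from the 2 of 15. CPLX1, complexin, a regulator of synaptic vesicle fusion, had 5.27 with the combination and 4.46 with romidepsin alone, a difference of 0.81. SEZ6, a neuronal membrane protein, had 4.10 with the combination and 3.45 with romidepsin alone, a difference of 0.65, and passed the filter only on the combination array. SYN1, synapsin, was at 0.22 and GAP43, a growth cone protein, at -0.21. REST was at 0.16 (7.60 with the combination and 7.44 with romidepsin alone) and RCOR1 at -0.03. Of the separate neural cell markers 5 of 6 named genes passed the filter, with a median difference of 0.22, 4 higher and 1 lower. Their mean log2 signal was 4.97 with the combination and 4.75 with romidepsin alone. OLIG2 was at 0.68, and MBP, the only lower one, at -0.13. OLIG2 passed only on the combination array. Without it the mean of the other 4 was 5.24 with the combination and 5.13 with romidepsin alone, and their median difference was 0.16. Whether REST, RCOR1 or these marker genes bear on the values of RUNDC3A and STMN2 was not tested.

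Other genes that deacetylase inhibitors are known to induce lay on both sides of 0. Over 16 measured genes other than GSN, TXNIP and SAT1, the median was -0.01, with 9 lower and 7 higher. None of the 16 was 1.5-fold apart, beside 1.99% of all named genes past the filter. ANXA1, annexin A1, had 8.78 with the combination and 9.07 with romidepsin alone, a difference of -0.29, in size close to that of SAT1. HPGD, which breaks down prostaglandins, was at -0.27, while the transcription factor KLF2 and the small GTPase RHOB were each at 0.27. CDKN1A was not analysed here. Of 10 named metallothioneins 5 passed the filter, with a median of -0.16, 4 lower and MT1E at 0.37. None of the 5 was 1.5-fold apart, beside 1.99% of all named genes past the filter. With no filter the metallothionein median was -0.06, and MT1G, MT1H and MT1M, all below the filter, were higher with sildenafil, MT1B and MT1F lower. General upkeep genes lay lower than named genes as a whole, with a median of -0.07 over 12 genes, 10 of them lower, among them HPRT1 at -0.33 and GAPDH at -0.26. This median was -0.01 under quantile normalization and -0.03 under lowess centring.

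**Figure D4:**
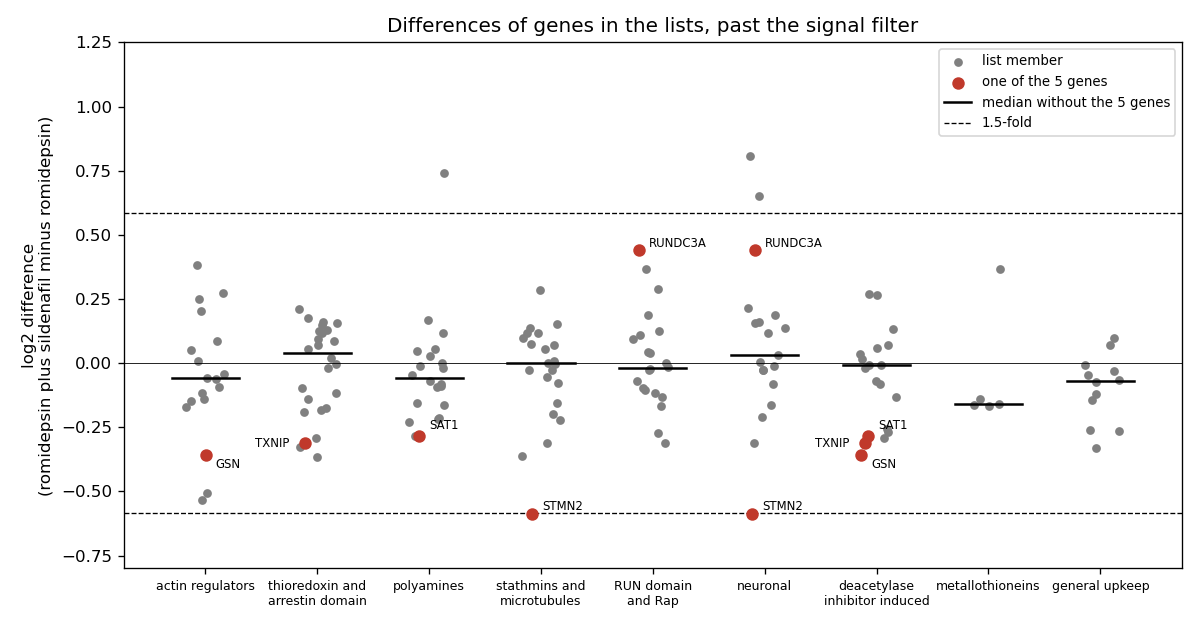
Log2 difference (romidepsin plus sildenafil minus romidepsin; vertical axis) of each gene past the filter in 9 lists, with the 5 genes in red, other genes in grey, and the median without the 5 genes as a black bar. List medians lie between -0.16 (metallothioneins) and 0.04 (thioredoxin and arrestin domain genes), and the dashed lines mark 1.5-fold.

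Over the 7 lists that surround the 5 genes, 132 other genes were measured past the filter. Their median difference was -0.01, with 70 lower and 61 higher, and 3 of them (2.27%) were 1.5-fold apart, beside 1.99% of all named genes past the filter. These were CPLX1, SEZ6 and DOHH, each higher with sildenafil, and SEZ6 and DOHH had passed the filter only on the combination array. The lists were written with earlier results of these data known.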

How the data were processed

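Total RNA of SNK6 cells was amplified, labelled with biotin and hybridised to whole-transcript arrays, per the labels' protocols. The values deposited by the authors were read as log2 signals, 1 column per array. No label or header used here says how they were summarised or normalized. The log base, also unstated, was taken as 2 because natural logs of 16-bit scanner values end at 11.1 and some signals are higher. When sorted, the arrays differed nowhere by more than 0.15. The number of arrays limits the precision.

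Names came from the platform annotation, which gave 1 symbol to 16098 probe sets and several to 0; the other 37519 are unnamed here. All Entrez identifiers matched RefSeq and 0 symbols changed. The brightest probe set stood for a gene, the filter was 3.91 on the brighter array, and called means at least 1.5-fold apart. Genes named in the text are the 5 genes; of each list those called, the 3 furthest from 0 and direct partners; and the 3 nearest in both signals. The genes and lists were chosen with earlier results of these data known. Some further list genes are named to fill out a family, or as markers by their signal, and were chosen after their values were seen. The calculations were tested on simulated data. Python 3.11.15, numpy 2.4.6, pandas 2.3.3 and statsmodels 0.14.6 were used; alternatives changed normalization (median centring, quantile, lowess with span 0.3), filter, probe set rule, threshold and number of neighbours. Promoters are RefSeq's (GRCh38.p14).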

Additional observations from a re-analysis of the deposited data

How the results depend on the processing

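Under median centring, quantile normalization and lowess centring, STMN2 lay between -0.62 and -0.60, GSN between -0.40 and -0.38, SAT1 between -0.31 and -0.27, RUNDC3A between 0.39 and 0.41 and TXNIP, by its brighter probe set, between -0.34 and -0.27, each with the direction and the side of the 1.5-fold mark that the deposited values gave. Averaging probe sets bears on TXNIP alone among the 5 genes and gave 0.0026. The median difference of all named genes past the filter was -0.04, 0.02 and 0.01 under these normalizations, in the same order. The count of named genes at least 1.5-fold apart was 201, against 379 with no filter and 106 with both arrays past it, because more or fewer dim genes were counted; it was 18 at 2-fold and 1283 at a fold lower than 1.5. When both arrays must pass, RUNDC3A and the 3 genes nearest to it in signal leave the measured genes, as do DOHH, SEZ6, MAP6, OLIG2 and TMOD1. List medians moved by less than the SD of a list over the root of its size in 84 of 92 recomputations. The 8 others were 0.05 and 0.04 for the microtubule list, 0.03 and 0.02 for the RUN domain list and -0.01 and -0.03 for the upkeep genes, under quantile normalization and lowess centring, and 0.19 with no filter and 0.02 with both arrays past it for the epithelial and fibroblast markers, whose median was -0.26 as deposited with the filter on the brighter array. The shares of genes of like signal moved little with 200 or 1000 neighbours. Without the filter, the median gap between probe sets of a gene was 0.20, and 10% of genes had a gap above 0.59. Genes with the brightest probe set past the filter and another not, a group chosen after seeing the data, as were the lists without REST and RCOR1 or OLIG2, had a median gap of 0.23. No paired analysis was possible because each group is 1 array.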

Other observations

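Several listed genes lay below the signal filter on both arrays and entered no count above; they are named here after their values were seen. ULBP1, which encodes a ligand of the activating receptor NKG2D that deacetylase inhibitors can induce, had 3.03 with romidepsin plus sildenafil and 1.99 with romidepsin alone, a difference of 1.05. THBS1, thrombospondin, had 3.25 with the combination and 3.75 with romidepsin alone, a difference of -0.50. CLU, clusterin, had 3.48 and 3.90 in the same order, a difference of -0.43. Whether any of these signals exceeded background is unknown.

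The value of PAOX was the same on both arrays to 5 decimals. The same held for 221 of the 53617 probe sets (0.412%), at signals from 1.33 to 10.7, whereas only 6 further probe sets differed by less than 0.0001. None of the 5 genes was among them.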
